A study of Mus musculus with 10 samples.

Results

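The genes described here are 37 genes of fatty acid oxidation, lipid droplets and fatty acid synthesis, followed in mouse oocytes that lack most of the mRNA of the zinc finger protein basonuclin (Bnc1). They were taken by gene symbol from the platform annotation of the arrays, each through its brightest probe set over all samples. A gene was tested where that probe set was above log2 5 in at least 4 samples, which held for 25 of the 37 genes, out of 10590 genes tested in all. The study compared 4 samples from non-transgenic mice with 6 samples from mice carrying a transgene that makes RNA interference against basonuclin in oocytes only. Strain and age of the mice are not given in the sources used here. All samples were fully grown oocytes with an intact germinal vesicle, which have not yet resumed meiosis, and each held RNA of about 50 oocytes from 1 mouse on 1 array. The non-transgenic samples carry the replicate numbers 1, 2, 7 and 8 and the transgenic samples 4, 5, 6, 11, 12 and 13.

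Fatty acids are first joined to coenzyme A, then carried across the inner mitochondrial membrane by the carnitine shuttle, and shortened step by step by beta-oxidation, a repeating series of reactions whose electrons pass through the electron transfer flavoprotein to the respiratory chain. Surplus fatty acids are stored as triglyceride in lipid droplets, which are coated by perilipins. Grown oocytes hold such droplets, and beta-oxidation is known to be needed for the mouse oocyte to resume meiosis and to become a competent egg.

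Of the 25 tested genes, 5 were higher and 5 lower in transgenic oocytes at a limma adjusted p below 0.05, and 15 did not pass. Acadl, Plin3, Acsl4, Acadm and Eci2 were the higher ones, and Acad9, Cpt2, Echs1, Etfa and Hadhb the lower ones. Eci2 was tested only by virtue of its transgenic values, because among controls just replicate 2 exceeded log2 5. The counts below keep Eci2, so its part in them depends on that filter. The 10 genes that passed are 40% of those tested, set beside 37.2% of all tested genes (18.9% higher and 18.3% lower), so the share was close to that of all genes tested. The balance of directions over all genes depended on the scaling, with 1998 higher and 1942 lower as deposited, 1984 and 1454 with each array centred on its median, and 1754 and 2518 when centred on its tested genes. Groups did not overlap for 8 of the 25, or 32%, as against 28% of all tested genes. The median log2 fold change was -0.08 for the 25 genes and -0.03 for all genes, and the median size of the change without its sign was 0.32 and 0.24. In these bulk samples less RNA per oocyte and fewer oocytes that express a gene cannot be told apart.

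**Figure D1:**
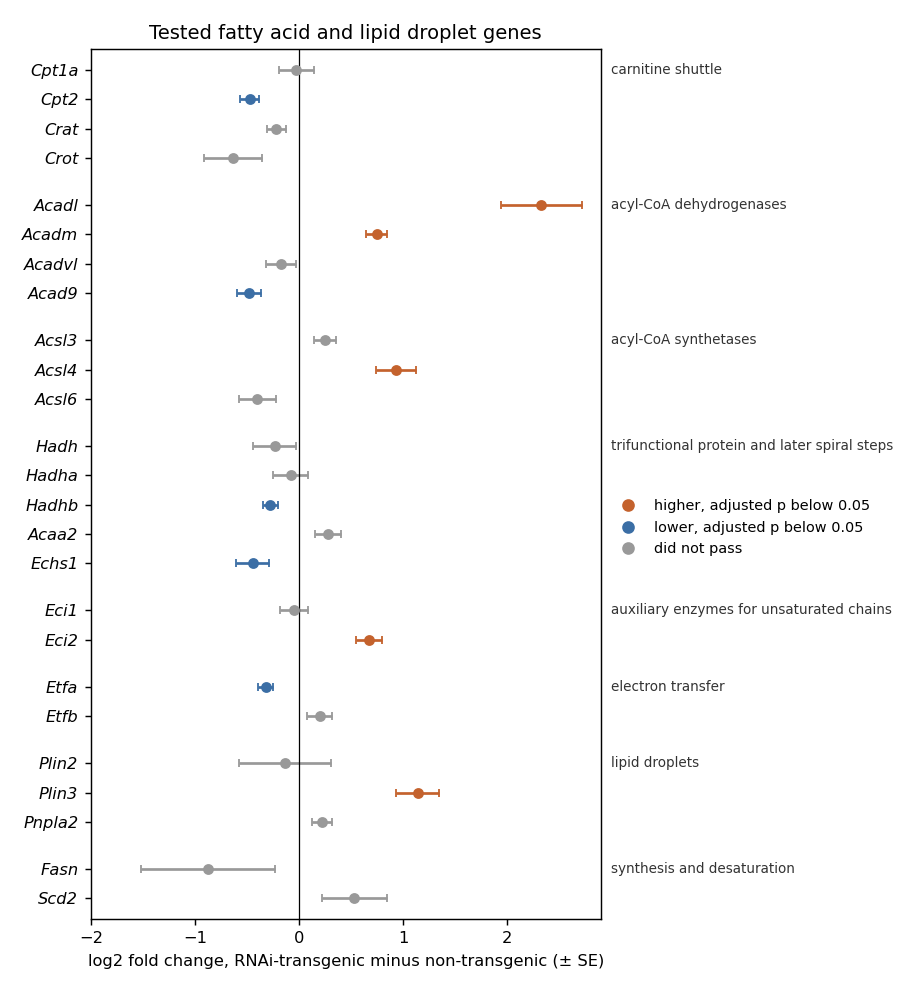
Log2 fold change (transgenic minus non-transgenic, with its standard error) of the 25 tested genes, grouped by role. Acadl at 2.33 and Plin3 at 1.14 lie farthest to the right, and the 5 genes that fell lie between -0.48 and -0.27.

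For Bnc1 itself, the log2 level of 11.57 ± 0.15 (SD, n = 4) in controls stood against 3.85 ± 0.21 (SD, n = 6) with the transgene. Every transgenic sample was below the filter level for Bnc1. Oocyte markers were bright in every sample, and 0 of the 10 listed rose while 2 fell in limma (Figla and Dppa3). All 6 adipocyte markers with a probe set of their own, among them Adipoq, Fabp4 and Lipe, were below the filter level in every sample. Of 8 tested granulosa and cumulus markers 2 rose. The summed intensity of the 15 with a probe set ran from 1796 to 2040 in non-transgenic and from 1768 to 2904 in transgenic samples. Amh, Amhr2, Inhba, Has2 and Ptgs2 were below the filter level throughout. Among stroma and vessel markers 5 were tested, of which 3 rose and 1 fell, and the summed intensity of the 10 listed was 375 to 472 in non-transgenic and 538 to 634 in transgenic samples, without overlap. Pecam1, Cdh5, Col1a2 and Col3a1 stayed below the filter level. Blood and immune markers summed to 2771 to 3103 and 2096 to 3209. The part of these other cells in the results below was not tested.

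The promoters of 5 genes are shown: Acadl and Acadm, the dehydrogenase genes that rose, Plin3, the lipid droplet gene that rose, and Cpt2 and Hadhb, the genes that fell without overlap between the groups. Each sequence is the 250 bases before the start, from RefSeq on GRCm38.p6, written 5′ to 3′ on the strand of the gene. Capitals mark matches, on either strand, to the nuclear receptor hexamer AGGTCA, the GC box GGGCGG or the CCAAT box. The windows are chr1:66863310-66863559 (minus strand) for Acadl, chr3:153944644-153944893 (minus) for Acadm, chr17:56290512-56290761 (minus) for Plin3, chr4:107923590-107923839 (minus) for Cpt2 and chr5:30155003-30155252 (plus) for Hadhb.
Acadl: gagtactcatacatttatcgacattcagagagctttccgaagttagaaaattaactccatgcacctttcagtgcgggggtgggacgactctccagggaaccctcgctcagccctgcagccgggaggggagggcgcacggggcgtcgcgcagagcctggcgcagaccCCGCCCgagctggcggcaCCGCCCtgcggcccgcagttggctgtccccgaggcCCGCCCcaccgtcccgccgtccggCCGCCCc
Acadm: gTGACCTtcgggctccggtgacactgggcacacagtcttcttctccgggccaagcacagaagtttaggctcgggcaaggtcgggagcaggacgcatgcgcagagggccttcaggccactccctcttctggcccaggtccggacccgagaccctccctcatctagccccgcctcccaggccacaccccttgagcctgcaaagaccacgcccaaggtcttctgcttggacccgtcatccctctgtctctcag
Plin3: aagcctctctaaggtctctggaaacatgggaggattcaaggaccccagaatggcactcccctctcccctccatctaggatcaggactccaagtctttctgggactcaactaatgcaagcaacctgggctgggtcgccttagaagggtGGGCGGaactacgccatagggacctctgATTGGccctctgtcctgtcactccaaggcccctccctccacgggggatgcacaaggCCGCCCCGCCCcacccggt
Cpt2: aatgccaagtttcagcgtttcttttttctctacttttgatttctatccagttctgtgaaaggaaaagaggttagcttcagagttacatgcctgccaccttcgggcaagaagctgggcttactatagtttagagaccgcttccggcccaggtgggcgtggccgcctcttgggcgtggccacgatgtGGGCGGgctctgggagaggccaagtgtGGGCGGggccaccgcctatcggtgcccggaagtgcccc
Hadhb: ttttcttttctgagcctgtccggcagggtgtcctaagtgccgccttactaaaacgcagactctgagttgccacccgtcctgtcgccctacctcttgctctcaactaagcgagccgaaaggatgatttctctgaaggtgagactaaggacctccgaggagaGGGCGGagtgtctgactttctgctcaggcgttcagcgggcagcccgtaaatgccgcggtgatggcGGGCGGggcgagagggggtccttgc
In the Acadl window the GC box occurs 4 times, all within 84 bases of the start, and 68.0% of its bases are G or C. The Acadm window holds no GC box and no CCAAT box, and has the hexamer once, as its reverse complement TGACCT, 249 bases before the start. Plin3 has 3 GC boxes, of which the 2 nearest the start overlap by 1 base, and 1 CCAAT box read on the other strand. Cpt2 and Hadhb have 2 GC boxes each. Promoter windows were found for 30 of the 37 genes, and some of these genes have several. The hexamer AGGTCA stood in 7 of 33 windows of these genes (Acadm, Acadvl, Acsl6, Cpt1a, Cpt1c, Echs1 and Plin2). It stood in 11.0% of windows of genes tested here and in 14.0% of all 32851 windows of this length. The GC box stood in 23 of 33, against 56.1% of windows of genes tested here and 32.7% of all windows. The sterol regulatory element TCACNCCAC was searched too and matched in Acsl1 and Ehhadh. It matched in 1.01% of windows of tested genes and in 1.05% of all windows. The CCAAT box stood in 18 of 33 windows, 35.4% of windows of tested genes and 33.9% of all. For the E-box CACGTG these were 0 of 33, 8.24% and 6.02%. A match is a stretch of letters and not a measured binding site.
The Hadhb window also faces the gene of its partner subunit. Hadha and Hadhb start on opposite strands with 272 bases between their starts, so all 250 bases shown lie upstream of both genes.

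The acyl-CoA dehydrogenases take the first step of each turn of the spiral, and they moved in both directions. Acadl encodes the long-chain enzyme, and its probe set 1448987_at was at log2 7.03, 5.51, 5.85 and 5.15 in non-transgenic replicates 1, 2, 7 and 8. In the transgenic samples it ran from 7.36 to 8.97 with a median of 8.35. All 6 transgenic samples lay above all non-transgenic ones, the nearest being non-transgenic replicate 1. Acadl rose by 2.33 (SE 0.39), 5.03-fold, with a limma adjusted p of 8.04e-04 and an exact permutation p of 0.00476, the smallest this design allows. Its second probe set was below the filter level in every sample.

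Acadm encodes the medium-chain enzyme and was at log2 9.22, 8.79, 9.21 and 8.78 in the non-transgenic samples in the same order. The transgenic samples lay close together, from 9.70 to 9.80 with a median of 9.75. Their SD was 0.04, against 0.25 in the non-transgenic group, and the groups did not overlap. Acadm rose by 0.75 (SE 0.10), 1.68-fold (limma adjusted p = 2.27e-04). Acadl and Acadm were the members that passed also among samples numbered 1 to 6 alone and among those numbered 7 to 13 alone.

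Acad9, whose protein also helps to assemble complex I of the respiratory chain, moved the other way. Its values were 8.33, 8.03, 8.29 and 8.06 in non-transgenic samples and ran from 7.55 to 8.03 with a median of 7.65 in transgenic ones. Transgenic replicate 4 lay just above the lowest non-transgenic sample and the other 5 lay below all of them. Acad9 fell by 0.48 on the log2 scale (SE 0.12, limma adjusted p = 0.00775), but its other probe set past the filter, 1429581_at, was at 5.64 and 5.52 (difference -0.11, limma adjusted p = 0.562 over all probe sets). Acadvl, the very-long-chain enzyme, was at 6.54 ± 0.37 (SD, n = 4) and 6.37 ± 0.08 (SD, n = 6) and did not pass (limma adjusted p = 0.376). It passed as lower without non-transgenic replicate 8 (adjusted p = 0.0237). Acads, the short-chain enzyme, and Acad10 were below the filter level in every sample.

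**Figure D2:**
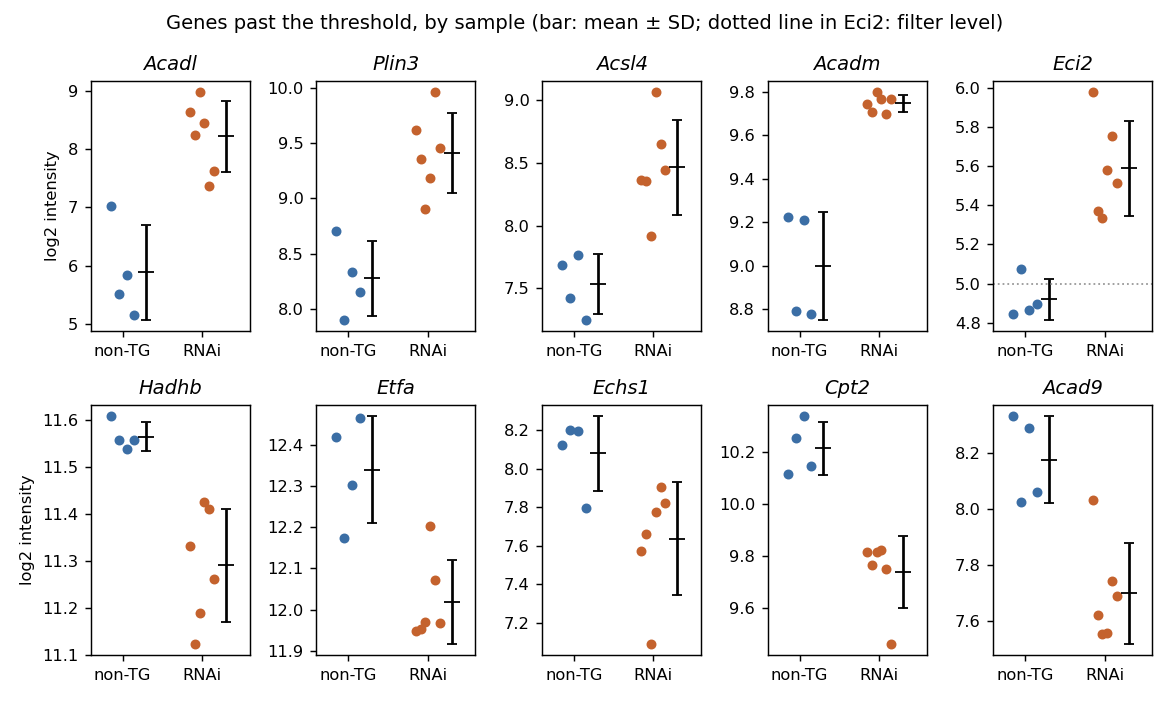
Log2 intensity in every sample for the 10 genes past the threshold, non-transgenic (non-TG) in blue and transgenic (RNAi) in orange, with mean and SD beside the points. All 6 transgenic samples lie above the non-transgenic ones in the 5 genes of the upper row, and the scale differs between panels.

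Of the genes of the carnitine shuttle 4 were tested, and Cpt2 was the one that passed. Cpt2 encodes the transferase of the inner mitochondrial membrane that hands the chain back to coenzyme A. It was at log2 10.12, 10.26, 10.34 and 10.15 in non-transgenic samples, and from 9.46 to 9.82 with a median of 9.79 in transgenic ones. The groups did not overlap, and transgenic replicate 13 was the lowest. Cpt2 fell by 0.48 (SE 0.09, 1.39-fold, limma adjusted p = 0.00172), and its other probe set, 1447820_x_at, differed by -0.39 (limma adjusted p = 0.0151 over all probe sets).

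Cpt1a, the outer membrane transferase that sets the rate of the shuttle in liver, was near the filter level, at 4.89 ± 0.37 (SD, n = 4) and 4.87 ± 0.24 (SD, n = 6). It was above the level in 2 samples of each group, so a change of this gene could hardly be measured here. Cpt1c, the brain form, was below the level in every sample. The probe set of the muscle form Cpt1b also names other genes, so Cpt1b was not analysed here. Crat, which acts on short acyl groups, was at 5.65 ± 0.15 and 5.43 ± 0.12 (limma adjusted p = 0.0892), and Crot, its peroxisomal relative for medium chains, at 7.05 ± 0.37 and 6.42 ± 0.54 (limma adjusted p = 0.0948). Neither passed, although Crat passed as lower after quantile normalization (adjusted p = 0.0337), when arrays were centred on their tested genes (adjusted p = 0.0386) and without non-transgenic replicate 8 (adjusted p = 0.0399) and Crot without transgenic replicate 4 (adjusted p = 0.0350).

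The long-chain acyl-CoA synthetases activate fatty acids by joining them to coenzyme A. Acsl4, which prefers arachidonic acid, was at log2 7.69, 7.42, 7.76 and 7.25 in non-transgenic samples. In transgenic samples its brightest probe set 1451828_a_at ran from 7.92 to 9.06 with a median of 8.40, above every non-transgenic value. It rose by 0.93 (SE 0.19, 1.91-fold, limma adjusted p = 0.00333). A second Acsl4 probe set past the filter gave a difference of 0.44 and did not pass (limma adjusted p = 0.232 over all probe sets).

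Acsl3, which sits on lipid droplets and supports their growth, was at 11.33 ± 0.09 (SD, n = 4) and 11.58 ± 0.21 (SD, n = 6) and did not pass by its brightest probe set (limma adjusted p = 0.0921). Its 3 probe sets gave 0.25, 0.17 and 0.63, and the last, 1428387_at, passed (limma adjusted p = 0.00689 over all probe sets). Acsl3 also passed without transgenic replicate 13 (adjusted p = 0.0330). Acsl6 was near the filter level at 5.58 ± 0.35 and 5.18 ± 0.28 (limma adjusted p = 0.0995), and its other probe set differed by -0.54 (limma adjusted p = 0.0169 over all probe sets). Leaving out non-transgenic replicate 2 or transgenic replicate 6 let Acsl6 pass as lower (adjusted p = 0.0365 and 0.0441). Acsl5 was below the filter level in every sample, and no probe set of Acsl1 was used here.

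**Figure D3:**
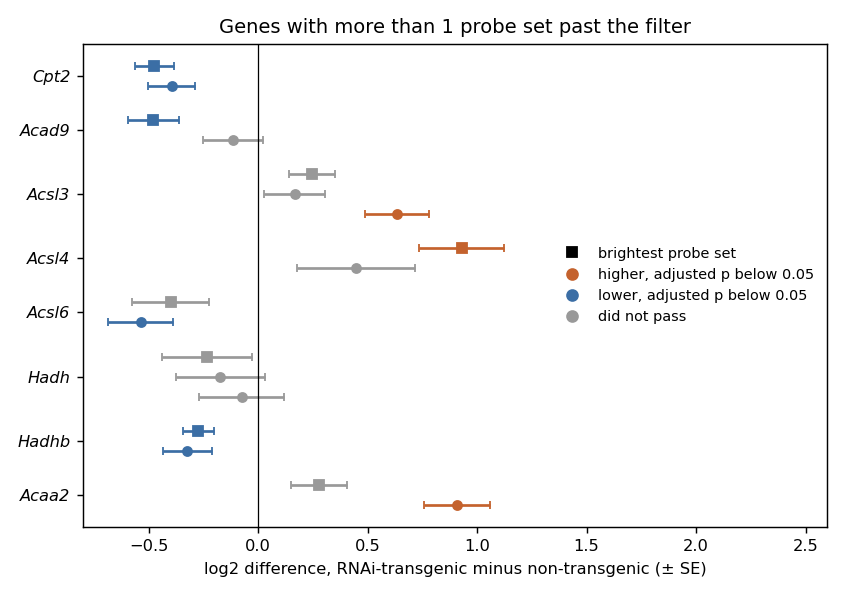
Log2 difference (transgenic minus non-transgenic, with its standard error) for each probe set past the filter in the 8 genes with more than 1 such probe set, squares marking the brightest. All probe sets of a gene lie on the same side of 0, but in Acad9, Acsl3, Acsl4, Acsl6 and Acaa2 they fall on different sides of the threshold.

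The mitochondrial trifunctional protein carries out the last steps of the spiral for long chains, with Hadha as its alpha and Hadhb as its beta subunit. Hadhb was at log2 11.61, 11.56, 11.54 and 11.56 in non-transgenic samples and from 11.12 to 11.43, with a median of 11.30, in transgenic ones. The groups did not overlap, but the gap was small. Hadhb fell by 0.27 (SE 0.07, 1.21-fold, limma adjusted p = 0.0105), and its other probe set past the filter by 0.32 (limma adjusted p = 0.0458 over all probe sets). The partner subunit Hadha was at 6.64 ± 0.42 (SD, n = 4) and 6.56 ± 0.13 (SD, n = 6), a difference of -0.08 that did not pass (limma adjusted p = 0.748). The difference between the changes of these subunits was not tested.

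Echs1 encodes the enoyl-CoA hydratase for short chains. It was at 8.13, 8.20, 8.20 and 7.79 in non-transgenic samples and from 7.09 to 7.91 with a median of 7.72 in transgenic ones. Non-transgenic replicate 8 lay within the transgenic range. Echs1 fell by 0.44 (SE 0.16, limma adjusted p = 0.0472), just past the threshold. The call was lost when non-transgenic replicate 1, 2 or 7 or transgenic replicate 4, 5, 11 or 13 was left out (adjusted p from 0.0512 to 0.113).

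Hadh, the hydroxyacyl-CoA dehydrogenase for shorter chains, was at 8.77 ± 0.30 (SD, n = 4) and 8.54 ± 0.39 (SD, n = 6) by its brightest probe set, and none of its 3 probe sets passed (limma adjusted p of the brightest = 0.413). Acaa2, the thiolase that closes the turn in the matrix, was at 7.19 ± 0.09 and 7.47 ± 0.23 by its brightest probe set, which did not pass (limma adjusted p = 0.107). The other Acaa2 probe set past the filter, 1428146_s_at, was at 6.27 ± 0.28 and 7.18 ± 0.22, a rise of 0.91 without overlap (limma adjusted p = 8.69e-04 over all probe sets). The rule for choosing the probe set thus decided whether Acaa2 counted as changed.

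Unsaturated chains need further enzymes that shift or remove their double bonds. Eci2, an enoyl-CoA isomerase found in mitochondria and peroxisomes, was at log2 4.84, 5.08, 4.87 and 4.89 in non-transgenic samples, of which replicate 2 alone was above the filter level. All 6 transgenic samples were above it, from 5.34 to 5.98 with a median of 5.55, so Eci2 passed the filter through the transgenic group. It was higher in transgenic oocytes, at least 1.49-fold when the values below the level are set to it (limma adjusted p = 0.00160). Eci1, the mitochondrial isomerase, was at 5.62 ± 0.34 (SD, n = 4) and 5.57 ± 0.09 (SD, n = 6) and did not pass (limma adjusted p = 0.812). Decr1, the dienoyl-CoA reductase, was below the filter level throughout.

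The electron transfer flavoprotein takes electrons from the dehydrogenases, with Etfa and Etfb as its subunits. Etfa was at 12.42, 12.17, 12.30 and 12.46 in non-transgenic samples and from 11.95 to 12.20 with a median of 11.97 in transgenic ones. Transgenic replicate 11 lay just above the lowest non-transgenic sample, and the other 5 below all of them. Etfa fell by 0.32 (SE 0.07, 1.25-fold, limma adjusted p = 0.00604). Etfb was at 8.30 ± 0.26 (SD, n = 4) and 8.50 ± 0.11 (SD, n = 6), a difference of 0.20 that did not pass (limma adjusted p = 0.223), except without non-transgenic replicate 7 (adjusted p = 0.0488). Etfdh, which passes the electrons on to ubiquinone, was below the filter level in every sample.

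Peroxisomes shorten very long and branched chains by enzymes of their own. Acox3 and Ehhadh were below the filter level in every sample, and Acaa1a was above it in non-transgenic replicate 1 only, so none of these 3 genes was tested. Acox3 was at 4.43 and 4.69 in the group means, Acaa1a at 4.66 and 4.51 and Ehhadh at 2.98 and 2.96. Values this low on these arrays do not show that the mRNA is absent.

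Lipid droplets are coated by perilipins and emptied by lipases. Plin3, a perilipin that moves from the cytosol to new droplets, was at log2 8.71, 7.90, 8.34 and 8.16 in non-transgenic samples. In transgenic samples it ran from 8.90 to 9.96 with a median of 9.41, and the groups did not overlap. Plin3 rose by 1.14 (SE 0.20, 2.21-fold, limma adjusted p = 0.00130). Pnpla2, the lipase that takes the first fatty acid from triglyceride, was at 6.94 ± 0.05 (SD, n = 4) and 7.16 ± 0.15 (SD, n = 6). Its groups did not overlap either, but the difference of 0.22 did not pass (limma adjusted p = 0.0879).

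Plin2, the perilipin that stays on the droplet, did not pass over all samples, and here 1 sample decided the result. It was at log2 7.70 in non-transgenic replicate 1 and at 10.32, 10.31 and 9.92 in replicates 2, 7 and 8. The transgenic samples ran from 9.22 to 9.97 with a median of 9.34, above the first and, apart from replicate 12, below the other 3. With all samples the difference was -0.13 (limma adjusted p = 0.845). Without non-transgenic replicate 1 it was -0.75 (SE 0.17, limma adjusted p = 0.00739).

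Fasn, the fatty acid synthase, showed the same sample apart. It was at log2 6.53 in non-transgenic replicate 1 and at 9.65, 9.54 and 9.68 in replicates 2, 7 and 8. The transgenic samples spread widely, at 7.89, 8.93, 7.39, 7.19, 9.11 and 7.35 in replicates 4, 5, 6, 11, 12 and 13. All 6 lay below non-transgenic replicates 2, 7 and 8 and above replicate 1. The difference was -0.88 (SE 0.64, limma adjusted p = 0.317) with all samples and -1.65 (SE 0.43, 3.14-fold lower, limma adjusted p = 0.0142) without replicate 1. Scd3, a stearoyl-CoA desaturase of the wider list below, was named after its values were seen because non-transgenic replicate 1 is the lowest of its group there too, though not far enough from the others to stand apart by Dixon's criterion, a measure of the gap to the nearest sample over the range of the group. It was at 5.49 in non-transgenic replicate 1, at 7.47, 7.93 and 7.08 in the other non-transgenic samples and from 5.69 to 6.79 in transgenic ones. Its difference went from -0.89 (limma adjusted p = 0.107) to -1.39 (limma adjusted p = 0.00202) without replicate 1. Genes of fatty acid synthesis were not all low in replicate 1. Replicate 1 minus the mean of the other non-transgenic samples was 0.09 for Acaca and 0.05 for Acly, but -0.68 for Scd2.

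Non-transgenic replicate 1 was also the sample of its group that most often stood apart over all tested genes. Its value lay far from the other 3, by Dixon's criterion, in 314 of 10590 genes, against 117 to 124 genes for the others. Among the transgenic samples replicate 6 stood apart most often, in 355 genes. All 10 genes counted as changed above kept their direction without non-transgenic replicate 1, and 9 of them kept their call, Echs1 being the exception. Its summed markers were the highest of its group for adipocytes (67.3, each marker still below the filter level), for stroma and vessels (472) and for blood (3103). Its granulosa and cumulus markers summed to 1907, within the range of its group, and its oocyte markers to the lowest sum of its group. This array also had the highest median intensity, 20.1 against 17.5 to 19.1 for the others. Whether these sums reflect other cells or background was not tested.

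**Figure D4:**
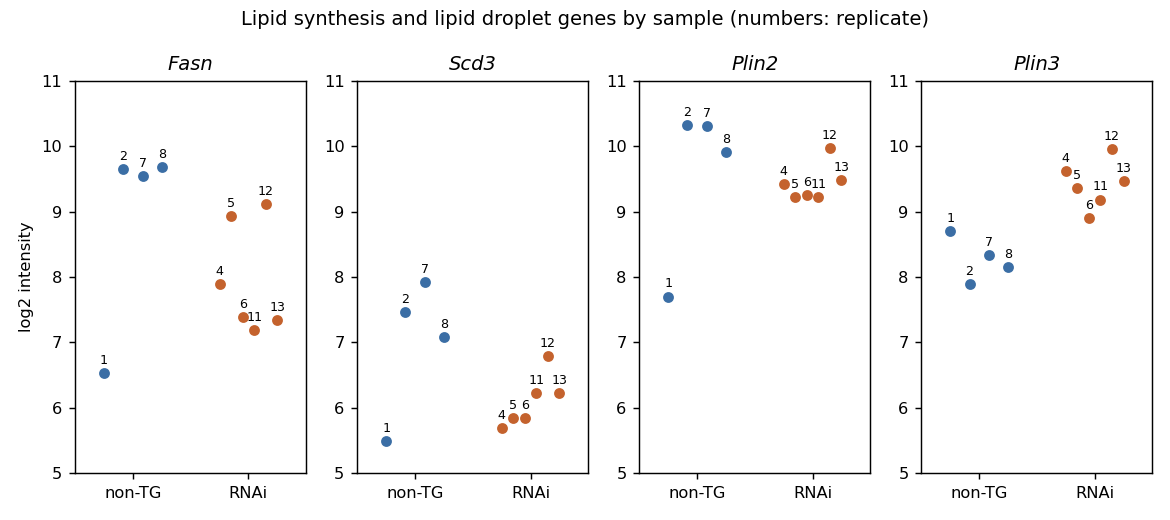
Log2 intensity of Fasn, Scd3, Plin2 and Plin3 in every sample on a common axis, non-transgenic (non-TG) in blue and transgenic (RNAi) in orange, with replicate numbers. Non-transgenic replicate 1 is the lowest sample for Fasn, Scd3 and Plin2, and for Plin3 it is the highest of its group at 8.71.

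The stearoyl-CoA desaturases put the first double bond into saturated chains. Scd1, the main form in liver and fat, was below the filter level in every sample, with a highest value of 3.37. Scd2 was near the level, at 5.09 ± 0.53 (SD, n = 4) and 5.62 ± 0.58 (SD, n = 6), above it in 2 of 4 and 5 of 6 samples, and did not pass (limma adjusted p = 0.214).

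A wider list of 100 further genes of fatty acid uptake, activation, synthesis, elongation, storage and control was followed beside these. Of the 62 that were tested, 19 rose, 11 fell and 32 did not pass, so 48.4% passed against 37.2% of all tested genes. The 19 include Fads2 and Prkaa2, which were tested only by virtue of their transgenic values. Their part in the counts and in the share depends on that filter. Prkaa2, named here after its values were seen, was above the filter level in 1 of 4 controls and in all 6 transgenic samples (limma adjusted p = 0.0369). Because the list was chosen with earlier results of these data known, the larger share cannot be read as a property of such genes. The largest rise on the list was that of Fads2, the delta-6 desaturase of polyunsaturated fatty acids. No control sample reached the filter level, the highest being 4.38, and its values ran from 7.08 to 8.30 with a median of 7.65 in transgenic ones. Fads2 thus passed the filter through the transgenic group alone, the group where it was high. Its rise was at least 6.34-fold (limma adjusted p = 3.95e-07). Hsd17b10, a hydroxyacyl-CoA dehydrogenase of the mitochondrial matrix named here after its values were seen, rose by 2.31 (SE 0.29, limma adjusted p = 1.04e-04), from 6.20 ± 0.75 (SD, n = 4) to 8.51 ± 0.28 (SD, n = 6). Non-transgenic replicate 1 was the lowest for Hsd17b10 at 5.08, against 6.46 to 6.66 in the other non-transgenic samples. Without that sample the rise was 1.94, 3.83-fold.

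Genes of uptake and storage were among those that rose, but others of these roles fell. The fatty acid transport gene Slc27a4 fell by 0.25 (limma adjusted p = 0.0291). Agpat2, a gene of triglyceride synthesis, fell by 0.34 (limma adjusted p = 0.00812), and Fitm2, given below, fell too. Slc27a4 and Agpat2 were named after their values were seen. Cd36, a fatty acid receptor of the cell surface, rose by 1.04 (limma adjusted p = 8.54e-05), and Fabp5, which binds fatty acids in the cytosol, rose by 0.84 to 14.45 ± 0.08 (SD, n = 6). For Fabp5 non-transgenic replicate 1 was at 13.24 and the other non-transgenic samples from 13.72 to 13.75, and without replicate 1 the rise was 0.71. Lpin1, the phosphatase that makes diacylglycerol, rose by 1.76 (SE 0.16, 3.40-fold). Dgat2, which makes triglyceride from it, rose by 0.78 (limma adjusted p = 2.21e-04), whereas Dgat1, which does the same reaction, was at 6.07 and 6.25 and did not pass (limma adjusted p = 0.227). Hilpda, a lipid droplet protein that inhibits Pnpla2, passed the filter level in 3 of the 4 controls and was higher with the transgene, at least 2.44-fold (limma adjusted p = 2.78e-05). The elongase gene Elovl1 rose by 1.16.

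Others fell. Pparg, a nuclear receptor that drives fat storage in adipocytes, fell by 1.56 (SE 0.13, 2.95-fold), from 9.49 ± 0.23 (SD, n = 4) to 7.93 ± 0.18 (SD, n = 6). Acaa1b, a peroxisomal thiolase, fell by 1.90 (limma adjusted p = 3.90e-06). It is a near copy of Acaa1a, and probe sets that name both were left out. Acat1, which acts on acetoacetyl-CoA in mitochondria, fell by 0.88 (limma adjusted p = 1.34e-05), and the thioesterase gene Acot7 by 0.69. Fitm2, needed to form droplets at the endoplasmic reticulum, was above the filter level in 4 of 6 transgenic samples and at least 1.98-fold lower. The transcription factor gene Mlxipl, which answers to glucose, fell by 0.54.

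Several genes at the branch points did not pass. Slc25a20, which exchanges acylcarnitine for carnitine across the inner membrane, was at 8.51 ± 0.20 (SD, n = 4) and 8.39 ± 0.12 (SD, n = 6) (limma adjusted p = 0.410). Acaca, which makes malonyl-CoA, was at 5.86 and 5.64 (limma adjusted p = 0.179), and Acly, which makes acetyl-CoA in the cytosol, at 11.20 and 11.11 (limma adjusted p = 0.298). Ppara, the nuclear receptor known to drive beta-oxidation genes in liver, was at 5.73 and 5.62 (limma adjusted p = 0.530). Lipe and Ppargc1a were not above the filter, and no probe set of Plin1 was used here.

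**Figure D5:**
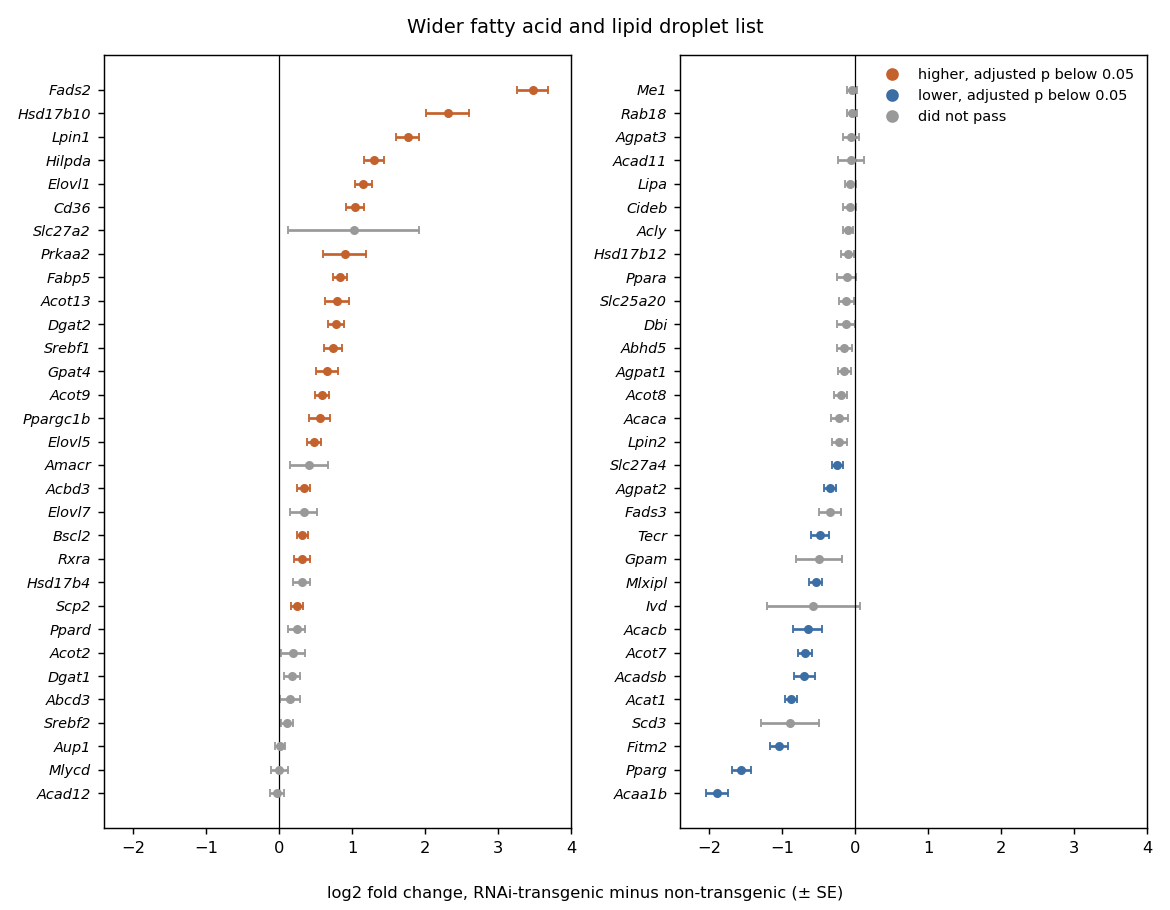
Log2 fold change (transgenic minus non-transgenic, with its standard error) of the 62 tested genes of the wider list, ordered by size. Hsd17b10 at 2.31 and Lpin1 at 1.76 rose, as did Fads2, plotted at 3.48 against a non-transgenic level below the filter (at least 6.34-fold), and Acaa1b at -1.90 and Pparg at -1.56 fell.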

How the data were processed

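Messenger RNA was measured on 10 arrays, 1 per sample. The authors deposited 1 linear intensity per probe set and array, made with GCRMA per the submitters' processing notes, its version being not given in the sources used here. This method shrinks dim signals to a shared low level, so folds of dim genes are compressed. Array medians ran from 17.5 to 20.1, and the number of arrays limits the precision. The deposited intensity values were log2-transformed and not normalized again. Of 45101 probe sets, 34945 name 1 gene, 932 several and 9160 none in the platform annotation, and only those with 1 gene were used. The brightest probe set stood for a gene, and a gene was tested where it was above log2 5 in at least 4 samples. Groups were compared with limma 3.58.1 in R 4.3.3 (lmFit, and eBayes with a trend), adjusted by Benjamini-Hochberg over 10590 genes, with a threshold of 0.05, and were tested on simulated data first. Exact permutation p-values are two-sided over 210 regroupings. Where a group lies partly below the filter level, the fold is given as a lower bound with values below that level set to it.

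The 37 genes and the wider list of 100 genes were chosen with earlier results of these data known. Every one of the 37 is accounted for, with those past the threshold given by sample. From the wider list the 6 higher and 6 lower genes with the smallest adjusted p are named, and some fixed ones whatever their p. Hsd17b10, Scd3, Slc27a4, Agpat2 and Prkaa2 are outside that rule. Promoter windows are those of RefSeq on GRCm38.p6. The platform names no genome build.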

Additional observations from a re-analysis of the deposited data

Results flagged for a closer look

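Within its group, 1 sample stood far from the rest by Dixon's criterion in 7 cases among the tested genes of the list. Chance gives such a case in a small share of groups, and 25 genes in 2 groups were looked at. Over all tested genes, the share in which a sample stood apart ran from 0.85% for transgenic replicate 13 to 3.35% for transgenic replicate 6. For non-transgenic replicate 1 it was 2.97%. Whether the 7 cases exceed these shares was not tested. Non-transgenic replicate 1 was the lowest of its group for Fasn (log2 6.53) and Plin2 (7.70) and the highest for Hadh (9.22). Among transgenic samples, replicate 13 was the lowest for Cpt2 (9.46), replicate 4 the lowest for Hadha (6.30) and the highest for Pnpla2 (7.43), and replicate 12 the highest for Plin2 (9.97).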

How the results depend on the processing

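None of the 10 genes past the threshold, nor Bnc1, changed direction under an alternative run, whereas among the 15 that did not pass the difference took both signs for Cpt1a, Acadvl, Hadh, Hadha, Eci1 and Plin2. With samples numbered 1 to 6 alone, limma called 2 of the 25 genes higher and 0 lower, with 11 at an unadjusted p below 0.05. On the wider list it then called 12 higher, and over all genes 1207 higher and 706 lower. With samples numbered 7 to 13 alone, 2 of the 25 genes were lower, 10 of the wider list were higher and 7 lower, and over all genes 1241 were higher and 1023 lower. These comparisons rest on fewer samples. At an adjusted p below 0.01, 3 of the 25 genes and 1102 of all genes were lower. Leaving out 1 sample at a time gave 5 to 6 higher and 4 to 7 lower among the 25 genes. Acadl and Acadm passed in every alternative run. Cpt2, Acad9, Acsl4, Plin3 and Eci2 lost their call with samples numbered 1 to 6, and Hadhb, Etfa and Echs1 with either range of numbers. Echs1 also lost it with no filter on low values (adjusted p = 0.0726), median centring (0.0845) and array weights (0.0663). Centring each array on its tested genes was added after seeing the data. No paired analysis was possible because the groups share no replicate number. The arrays carry no detection flag, so genes near log2 5 have uncertain folds.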
